A study of Mus musculus with 6 samples.

Results

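Complement genes of the classical, alternative and central steps were examined in the renal cortex of mice with unilateral ischemia-reperfusion injury (UIRI), treated or not with bruceine A (BA). The 9 genes, C1qa, C1qb, C1qc, C1ra, C1s1, C4b, C3, Cfb and C3ar1, were chosen by name, with their values in this comparison already known, from the 19166 symbols of the expression table, and all 9 were in it. Their values are therefore given as a description, and no p-value is given for any of them. The mice were male wild-type C57BL/6J aged 8 weeks, in which the vessels of the left kidney had been clamped for 35 min and whose right kidney was removed on day 13. The UIRI group (n = 3) received vehicle (ethanol in saline) and the UIRI + BA group (n = 3) received BA at 1 mg/kg each day by intraperitoneal injection, both from the day of surgery until the cortex was taken on day 14. BA is a quassinoid of Brucea javanica, and the labels of the libraries spell it Brucine A. Uninjured kidneys were not analysed here, so the values compare BA with vehicle after injury and not injury with health.

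Complement is a cascade of plasma and tissue proteins. In the classical pathway C1q, built of the C1qa, C1qb and C1qc chains, binds antibody or damaged cells and activates the proteases C1r and C1s, which cut C4 and C2 to form a C3 convertase. In the alternative pathway factor B (Cfb) joins C3b to form another convertase, so that C3 is both the shared substrate and a starting point of amplification. The fragment C3a acts on the receptor C3ar1. The liver makes most circulating C3, but injured tubules also make it, whereas macrophages are the best known source of C1q and carry C3ar1.

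For 6 of the 9 genes the RefSeq tables (GRCm38.p6) hold the sequence from 250 bases before to 50 bases after a start site. C1qa, C4b and Cfb have no entry. The windows of C1qb and C1qc (chr4:136886151-136886450 and chr4:136892865-136893164, both minus strand) are shown because these genes followed each other closely over the libraries, and the window of C3 (chr17:57228087-57228386, minus strand) because C3 went the other way. Capitals mark each match to one of 5 motifs searched on both strands. For the myeloid factor PU.1 the letters searched were GAGGAA. For the C/EBP factors of the acute phase response they were TTGCNNAA, and for the TATA box they were TATAAA. For the GAS element bound by STAT factors they were TTCNNNGAA, and the last motif was that of NF-kappaB. No match overlapped another.
C1qb: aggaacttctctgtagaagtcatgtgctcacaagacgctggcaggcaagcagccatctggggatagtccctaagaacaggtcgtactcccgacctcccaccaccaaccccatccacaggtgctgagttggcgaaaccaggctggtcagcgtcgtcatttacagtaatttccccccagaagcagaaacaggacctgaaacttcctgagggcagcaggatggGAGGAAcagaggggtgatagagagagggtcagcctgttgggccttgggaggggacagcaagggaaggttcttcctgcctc
C1qc: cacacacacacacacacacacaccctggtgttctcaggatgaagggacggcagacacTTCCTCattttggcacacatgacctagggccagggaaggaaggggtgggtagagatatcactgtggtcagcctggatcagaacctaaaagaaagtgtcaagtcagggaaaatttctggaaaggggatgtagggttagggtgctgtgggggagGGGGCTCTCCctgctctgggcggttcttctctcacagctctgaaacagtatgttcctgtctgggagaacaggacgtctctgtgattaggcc
C3: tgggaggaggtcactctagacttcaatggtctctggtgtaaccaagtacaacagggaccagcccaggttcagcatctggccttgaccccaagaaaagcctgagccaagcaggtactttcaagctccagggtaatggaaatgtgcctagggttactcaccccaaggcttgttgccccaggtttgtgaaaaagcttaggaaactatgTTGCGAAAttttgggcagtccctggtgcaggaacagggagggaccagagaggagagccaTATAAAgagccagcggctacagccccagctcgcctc

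The C1qb window held the PU.1 letters 30 bases before the start site, and the C1qc window held them on the other strand 193 bases before it. These letters occur in 28.3% of all 32851 promoter windows of this length. The C1qc window also held an NF-kappaB match (4.51% of windows), and the C3 window held a C/EBP match 45 bases before its start site (10.8% of windows) and TATAAA 15 bases after it (13.6% of windows). GAS letters, present in 8.30% of windows, were in none of these 3. The windows of C3ar1, C1ra and C1s1, not shown, were searched too. C3ar1 held no PU.1 letters but held TATAAA 235 bases before its start site. C1ra held matches to PU.1, C/EBP and GAS, at 45, 17 and 33 bases after its start site. C1s1 held a C/EBP match 242 bases before a start site (chr6:124542310-124542609) and none in its other window. The matches describe the sequence alone.

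Depth and sample make-up bear on all values that follow. Between 16510720 and 38124164 reads per library fell on genes, UIRI replicate 3 being the deepest at 2.04 times the median over the rest. The first principal component was taken over the 17249 genes above a minimum mean value and held 41.8% of the variance. On it UIRI replicate 3 lay at 11.1, between UIRI + BA replicate 2 at 3.11 and UIRI + BA replicate 3 at 13.4. UIRI replicates 1 and 2 lay away from it, at -32.5 and -25.5. The fold changes of the complement genes and the counts of marker genes are therefore also given without UIRI replicate 3. It was singled out from these same data for lying near the UIRI + BA libraries. Leaving it out thus tends to widen the difference between the groups. Over all rows 962 then had an adjusted p below 0.05 (limma), against 0 with all 6 libraries. Counts without it are a description and not a further test. The libraries are labelled as renal cortex. Lrp2, an endocytic receptor gene of the proximal tubule, read 2912 to 7057 normalized counts, and 5 podocyte markers summed to 8788 to 11626. Whole kidney holds both cell types too, so these values do not tell cortex from whole kidney. The 6 listed urothelium genes summed to 524 in UIRI replicate 3 and 320 in UIRI + BA replicate 3, against 30.1 to 126 in the other 4 libraries, and the part of this tissue in the values was not tested. The tissue is mixed, so fewer cells of a type and less RNA per cell cannot be told apart.

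The complement genes fell into 3 patterns. C3 and Cfb were higher in every UIRI + BA library than in every UIRI library, by 1.52-fold and 1.89-fold. The 3 C1q chains and C3ar1 had means with BA that were 0.759 to 0.790 times those with vehicle, but UIRI replicate 3 lay among the UIRI + BA libraries (for C1qc below them). The proteases C1ra and C1s1 and the component C4b differed least, at 0.982, 0.943 and 0.935 times. For 2 of the 9 genes the groups did not overlap with BA higher, and for 0 of the 9 with BA lower. Over all 19176 rows of the table the groups did not overlap, with BA higher, in 7.45% and, with BA lower, in 6.96%. The 9 genes had a median log2 fold change of -0.10, against -0.01 over all genes, which does not describe a list whose members went both ways.

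**Figure D1:**
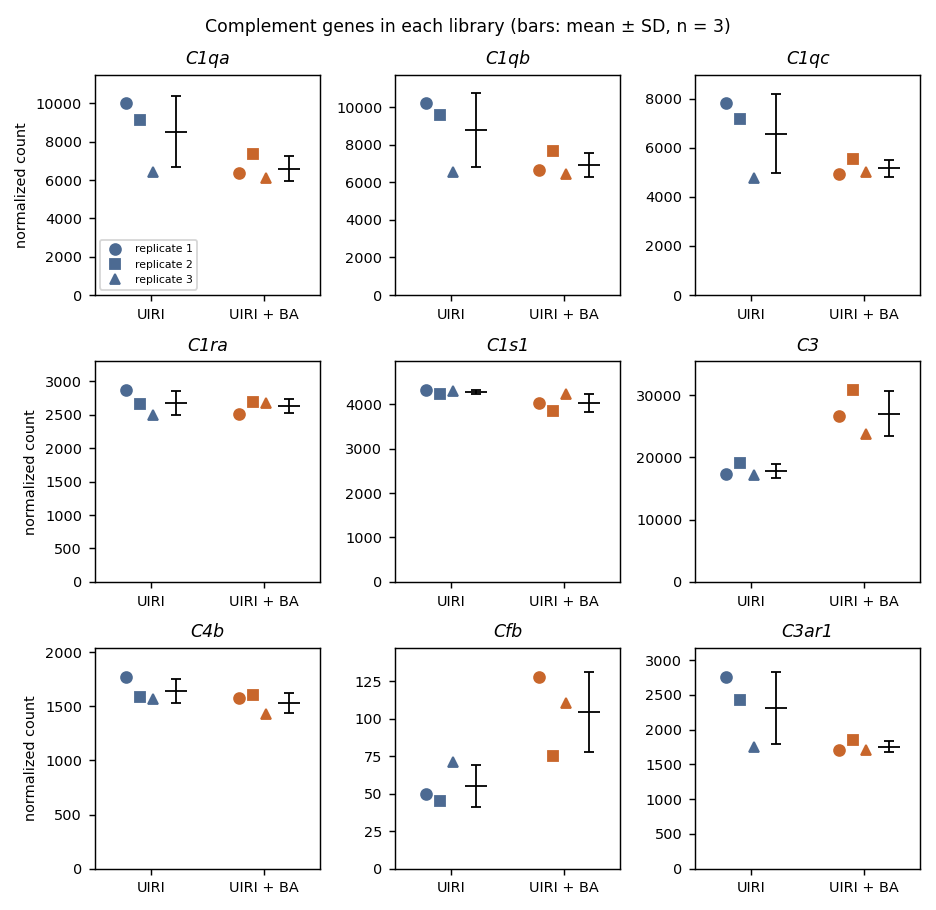
Normalized count (linear axis from 0) of the 9 complement genes in each library of the UIRI and UIRI + BA groups, with the mean and SD of each group (n = 3) beside the points. C3 and Cfb lie higher in all 3 UIRI + BA libraries, and for C1qa, C1qb, C1qc and C3ar1 UIRI replicate 3 (triangle) lies below UIRI replicates 1 and 2 and near the UIRI + BA libraries.

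C3, the central component, lay below C1qa and C1qb but above the other genes in mean level per exon length. Its normalized counts were 17262, 19166 and 17138 in the vehicle libraries (UIRI replicates 1, 2 and 3, in this order throughout) and 26577, 30809 and 23775 in those with BA. The groups did not overlap, and the lowest UIRI + BA library stood above the highest UIRI library. The means were 17856 ± 1137 (SD, n = 3) and 27054 ± 3541 (SD, n = 3), with the log2 fold change at 0.59 ± 0.11 (SE). C3 ranked 56 of 19176 rows by mean normalized count. UIRI replicate 3, which resembled the UIRI + BA libraries in C1q, had the lowest C3 value of all 6. Leaving out each library in turn gave a log2 fold change of C3 from 0.50 to 0.68, which was 0.56 without UIRI replicate 3.

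Hepatocyte markers had low counts in the cortex. The 9 of 10 listed hepatocyte genes in the table, none of them at 0 in every library, summed to between 534 and 795 normalized counts in UIRI and between 605 and 766 in UIRI + BA, and 4 were higher and 5 lower with BA. Albumin (Alb), the defining one, read 156 to 348 over the 6 libraries. The 10 genes of an injured tubule list summed to 411684 to 425292 in UIRI and 421745 to 489904 in UIRI + BA. Most of each sum was Spp1, which alone read 357924 to 370438 and 364119 to 427521, with groups that overlapped. Of the 10 genes 6 were higher and 4 lower with BA. Among them Havcr1 (KIM-1) read 14125, 16614 and 16012 with vehicle and 18944, 22559 and 21074 with BA. Vcam1, an adhesion molecule of tubules that fail to repair, read 13846, 15765 and 12595 with vehicle and 17766, 17781 and 17980.2 with BA. The groups did not overlap in either gene, both being higher with BA as C3 was. Lcn2 (NGAL) lay lower in every UIRI + BA library, at 3137 to 3539 against 4507 to 5260.1, and so did Krt18, at 2526 to 2725 against 3064 to 3695. Of the 10 genes, 3 were higher and 2 lower at an unadjusted p below 0.05, and 0 passed an adjusted p of 0.05 (limma). Over all rows 5.67% passed the unadjusted threshold with BA higher and 4.61% with BA lower. Without UIRI replicate 3, 2 of the 10 were higher and 2 lower at an adjusted p below 0.05 (limma), where 3.22% and 1.79% of all rows were. All 12 proximal tubule markers were higher with BA (11 at an unadjusted p below 0.05, where 5.67% of all rows were, and 0 at an adjusted one, by limma), and Lrp2 itself read 2912 to 5119 in UIRI and 5484 to 7057 in UIRI + BA. The log2 ratio of C3 to the mean of the proximal tubule list overlapped between the groups (2.89 to 3.68 in UIRI, 2.94 to 3.63 in UIRI + BA). Within UIRI it spread widely (SD 0.44, n = 3) beside a log2 fold change of C3 of 0.59, so overlap decides little. Its lowest value was in UIRI replicate 3, where the list mean was 11.18, against 10.46 and 10.54 in UIRI replicates 1 and 2. The ratio of C3 to the injured tubule list did not overlap (1.39 to 1.65 in UIRI against 1.86 to 2.20 in UIRI + BA). Without UIRI replicate 3, 11 of the 12 proximal tubule markers were higher at an adjusted p below 0.05 (limma), where 3.22% of all rows were. The part of tubule content in the C3 values was not tested.

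Cfb, the alternative pathway protease that pairs with C3b, had few reads. It read 49.8, 45.0 and 71.2 with vehicle and 128, 75.4 and 111 with BA, resting on 40 to 130 reads per library. The groups did not overlap, but UIRI replicate 3 and UIRI + BA replicate 2 lay next to each other. The means were 55.3 ± 13.9 (SD, n = 3) and 105 ± 26.7 (SD, n = 3), giving a log2 fold change of 0.90 ± 0.25 (SE) that ran from 0.74 to 1.12 with each library left out (1.09 without UIRI replicate 3). In GENCODE release M21 the gene Gm20547 covers 79.5% of the exon bases of Cfb on the same strand and is not among the rows of the table used here. Where the counting drops reads shared by such genes, the value of Cfb is too low, so its level is not compared with that of other genes. The listed neighbour gene C2, which shares 42.8% of its exon bases with Gm20547, read 787, 808 and 602 with vehicle and 673, 742 and 733 with BA, and the groups overlapped (log2 fold change -0.02 ± 0.12, SE).

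The 3 chains of C1q were abundant and followed each other. C1qa, the A chain, read 10010.4, 9135 and 6431 with vehicle and 6356, 7339 and 6109 with BA. C1qb, the B chain, read 10209, 9589 and 6537 with vehicle and 6665, 7668 and 6469 with BA. C1qc, the C chain, read 7814, 7154 and 4755 with vehicle and 4938, 5553 and 4994 with BA. In each chain UIRI replicates 1 and 2 were the 2 highest libraries, UIRI + BA replicate 2 came next, and UIRI replicate 3 lay with the 2 remaining UIRI + BA libraries, so that the groups overlapped. The log2 fold changes were -0.35, -0.32 and -0.32 (standard errors 0.15, 0.16 and 0.16). Without UIRI replicate 3 they became -0.54, -0.52 and -0.54, and without UIRI replicate 1 they became -0.22, -0.20 and -0.18. The size of the difference in C1q thus rests on single UIRI libraries, and it remained negative for the 3 chains in each of the 6 fits without 1 library.

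The proportions of the chains hardly varied. As a ratio of counts not corrected for length, C1qa was 0.944 to 0.984 times C1qb over the 6 libraries, and C1qb was 1.30 to 1.38 times C1qc. On the log2 scale these ratios ranged over 0.06 and 0.09, while C1qb itself ranged over 0.66. The ratio of C1qb to C3ar1, encoded on another chromosome (chromosome 6, where the C1q genes lie together on chromosome 4 between 136880129 and 136898803 of GRCm38), ranged over 0.16. No ratio among these 4 genes separated the groups.

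C3ar1, the receptor for C3a, read 2757, 2431 and 1752 with vehicle and 1711, 1851 and 1708 with BA. As for C1qa and C1qb, UIRI replicate 3 lay inside the range of the UIRI + BA libraries. The means were 2313 ± 513 (SD, n = 3) and 1757 ± 81.7 (SD, n = 3), and the log2 fold change of -0.37 ± 0.15 (SE) became -0.56 without UIRI replicate 3 and -0.23 without UIRI replicate 1. The ratio of ligand precursor to receptor, C3 to C3ar1, was 2.65, 2.98 and 3.29 on the log2 scale with vehicle and 3.96, 4.06 and 3.80 with BA. The groups did not overlap on this ratio.

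Most macrophage genes were, like C1q and C3ar1, lower with BA. Of 15 macrophage markers, all present in the table, 13 were lower and 2 higher with BA, 4 of the lower ones at an unadjusted p below 0.05, where 4.61% of all rows were, and 0 after adjustment (limma), and the median log2 fold change was -0.26. Their summed normalized counts were 109171 to 148661 in UIRI and 103091 to 117591 in UIRI + BA, with UIRI replicate 3 the lowest of its group. The receptor gene Csf1r, which macrophages need to survive, read 6932, 6420.2 and 5977 with vehicle and 5844, 5773 and 5556 with BA, and its groups did not overlap. Adgre1 (F4/80) read 2831 to 3423 in UIRI and 2441 to 2981 in UIRI + BA, and Cd68, a lysosomal protein of macrophages, read 1429 to 2019 and 1373 to 1529. The log2 ratio of C1qb to the mean of the macrophage list was 1.59, 1.65 and 1.32 with vehicle and 1.40, 1.56 and 1.36 with BA. Measured against macrophage markers, C1qb overlapped between the groups, as its own values already did, and the ratio was lowest in UIRI replicate 3. Without UIRI replicate 3, 12 macrophage markers were lower and 3 higher, 7 of the lower ones at an adjusted p below 0.05 (limma), where 1.79% of all rows were, and the median became -0.40. The part of macrophage number in the values of C1q and C3ar1 was not tested.

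**Figure D2:**
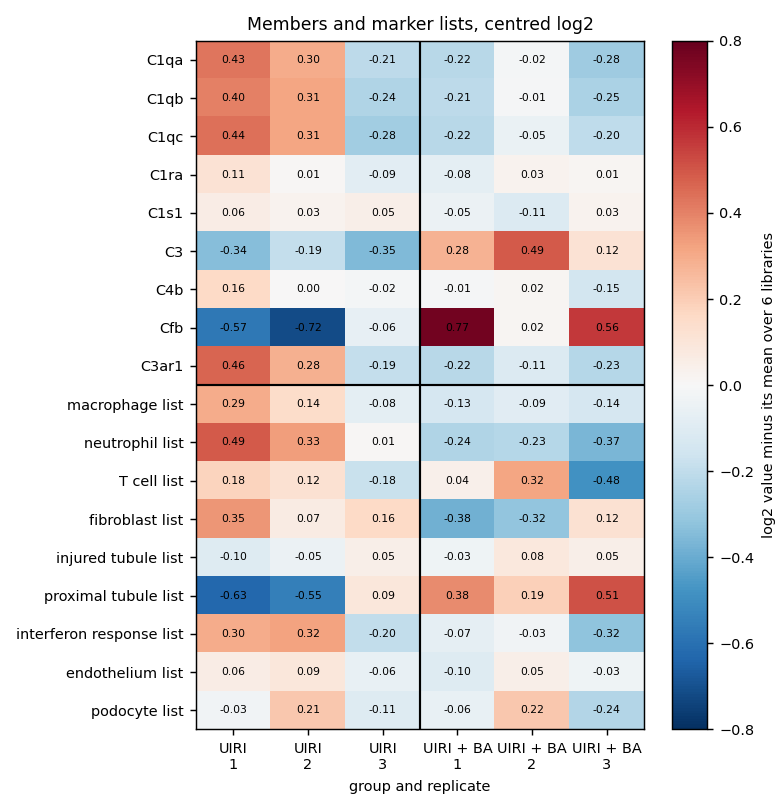
Log2 normalized count of each complement gene, and mean log2 value of each marker list, minus its mean over the 6 libraries (colour and printed value), by library. The C1q chains, C3ar1 and the macrophage list are above their mean in UIRI replicates 1 and 2 and below it in the other 4 libraries, C3 is below its mean in all 3 UIRI libraries and above it in all 3 UIRI + BA libraries, and among the 9 genes C1ra, C1s1 and C4b vary least.

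C1ra and C1s1, the proteases of the C1 complex, and C4b, a substrate of C1s, varied least of the 9 genes. C1ra read 2869, 2667 and 2498 with vehicle and 2513, 2698 and 2677 with BA, giving a log2 fold change of -0.02 ± 0.08 (SE) that was above 0 without UIRI replicate 1 or UIRI + BA replicate 1 and -0.07 without UIRI replicate 3. C1s1 read 4316, 4225 and 4286 with vehicle and 4021, 3840.3 and 4235 with BA, with the log2 fold change at -0.09 ± 0.07 (SE). C4b read 1771, 1587 and 1566 with vehicle and 1573, 1602 and 1429.6 with BA, with the log2 fold change at -0.10 ± 0.08 (SE). Without UIRI replicate 3 the log2 fold change was -0.08 for C1s1 and -0.13 for C4b. The groups overlapped in all 3 genes, although those of C1s1 came apart, lower with BA, under quantile normalization and upper quartile scaling. Over the 6 libraries C1ra ranged over 0.20, C1s1 over 0.17 and C4b over 0.31 on the log2 scale, against 0.71 for C1qa and 0.85 for C3. C1ra, C1s1 and C4b have close copies in the mouse genome (C1rb, C1s2 and C4a), between which reads can be split, and the antisense gene Gm16567 covers 18.4% of the exon bases of C1s1, where the counting is not stated to use strand. Fibroblasts are a known source of these proteins, and all 11 fibroblast markers were lower with BA, 6 of them at an unadjusted p below 0.05, where 4.61% of all rows were, and 0 after adjustment (limma). Without UIRI replicate 3, 1.79% of all rows were lower at an adjusted p below 0.05 (limma). All 11 fibroblast markers were again lower, 2 of them at this threshold. Their summed normalized counts were 98369 to 118338 in UIRI and 72221 to 95642 in UIRI + BA, and Col1a1, the main collagen of scars, read 15382 to 17083 and 12344 to 13545. The log2 ratio of C1s1 to the mean of the fibroblast list overlapped between the groups (-0.25 to 0.01 in UIRI and -0.04 to 0.39 in UIRI + BA).

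Levels of the 9 genes were ordered per length, as reads divided by exon length and by the library total (the RPKM scale, with exon lengths from GENCODE release M21). Over the 6 libraries the order was C1qa (346), C1qb (343), C3 (208), C1qc (144), C1s1 (63.1), C1ra (42.3), C3ar1 (22.5) and C4b (13.3). Cfb was left out for its shared exons. C1ra, C1s1 and C4b may also be counted too low, since reads can be split between them and their close copies. C1qa and C1qb, neighbours at the top, were at 389.6 ± 83.0 and 383 ± 83.7 (SD, n = 3) in UIRI and at 302 ± 28.1 and 303 ± 26.3 (SD, n = 3) in UIRI + BA and did not differ beyond their spread. C3 and C1qc did not differ beyond their spread in UIRI, at 165 ± 10.5 and 162 ± 38.7 (SD, n = 3), but lay apart with BA, where C3 was at 218 to 282 and C1qc at 127 ± 7.28 (SD, n = 3). C3 lay below C1qb within each of the 6 libraries, where C1qb was at 288 to 443 in UIRI and 280.5 to 332 in UIRI + BA, although with BA the ranges of both genes overlapped. The others kept their places in both groups: C1s1 was at 65.0 ± 0.698 and 61.3 ± 3.14, C1ra at 42.7 ± 2.66 and 41.9 ± 1.00, C3ar1 at 25.5 ± 5.51 and 19.4 ± 0.777, and C4b at 13.7 ± 0.852 and 12.8 ± 0.844 (SD, n = 3, UIRI and UIRI + BA). On this scale C1qa ranked 88, C1qb 91 and C3 164 of 18787 genes with a known length.

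**Figure D3:**
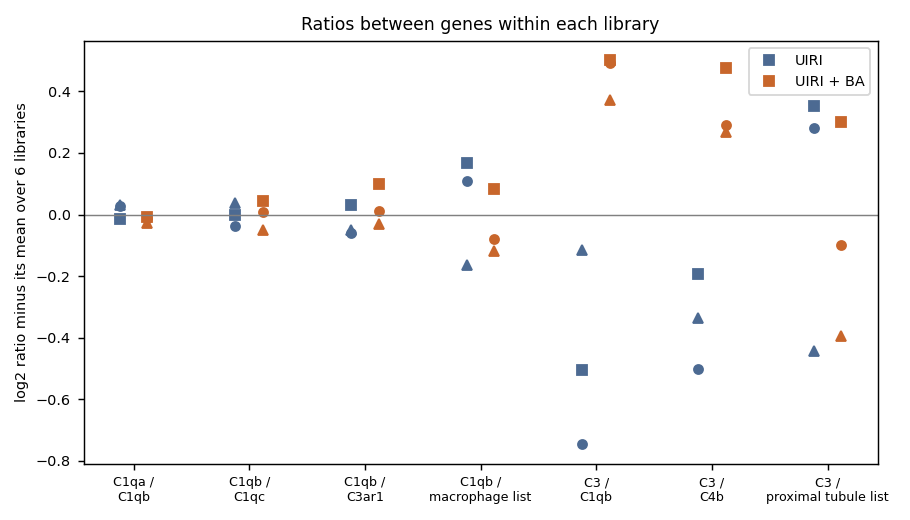
Log2 ratio between pairs of genes (or a gene and the mean log2 value of a marker list) within each library, minus the mean of that ratio over the 6 libraries, for UIRI and UIRI + BA (circle, square and triangle for replicates 1, 2 and 3). Ratios among C1qa, C1qb, C1qc and C3ar1 stay close to 0 in all libraries, whereas C3 relative to C1qb or C4b lies higher in all 3 UIRI + BA libraries.

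The genes most like each complement gene were sought among 13938 others whose mean normalized count reached 50, by the root mean square difference between centred log2 profiles over the 6 libraries. C1qa and C1qb were nearest to each other (0.02), followed by Aif1 for C1qa (0.02) and Gm17066 for C1qb (0.03). C1qc was nearest to Gngt2 (0.02) and C1qb (0.03). The nearest genes of C3ar1 were C1qc and C1qa (both 0.05). For C3, Fam169b and Nmrk1 came first, at 0.09, and C1qb stood at 0.49. Cfb was nearest to Hnf4g and Gm16170, at 0.11 and 0.12, and C3 stood at 0.42 from it. C1ra was nearest to Trmt1 and Spcs2, C1s1 to Hspa2 and Fam192a (all 0.02), and C4b to Mad2l1 (0.01) and Bin1 (0.03). The distance depends on how much a gene varies, so its size is not comparable between these genes. Cfb and C3 ranged most over the libraries (1.49 and 0.85 on the log2 scale) and C1ra, C1s1 and C4b least.

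The other genes of the cascade were read from a list of 51, of which 40 were in the table. With BA 18 of the 40 had a higher mean log2 value and 22 a lower one, and the median log2 fold change was -0.03. By limma, an adjusted p below 0.05 was found for 0 of the 40 and 0 of all 19176 rows (0%). At an unadjusted p below 0.05, 4 of the 40 were higher, where 5.67% of all rows were, and 5 were lower, where 4.61% of all rows were. Without UIRI replicate 3 an adjusted p below 0.05 was found for 4 of the 40: Cpn1, Cfi and C7 higher, as 3.22% of all rows were, and Itgam lower, as 1.79% of all rows were. In that fit 962 of all rows passed. DESeq2 found 2, both higher, as 0.85% of all rows were (213 of 19171 rows passed in either direction): Cpn1 (adjusted p 0.00269) and Cfi (adjusted p 0.0172), and edgeR's quasi-likelihood test found 0.

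Of 8 soluble regulators 3 were higher and 5 lower with BA. At an unadjusted p below 0.05 there were 2 each way, where 5.67% of all rows were higher and 4.61% lower. Cfi, the protease that cleaves C3b and C4b with the help of cofactors, read 617, 692 and 820.4 with vehicle and 1075, 985 and 970.4 with BA. Cpn1, the catalytic subunit of carboxypeptidase N, which trims C3a and C5a, read 1390.1, 1673 and 1693 with vehicle and 2305, 2128 and 2358 with BA. In both the groups did not overlap, each with a log2 fold change of 0.52 (standard errors 0.11 and 0.09) and an adjusted p of 0.225 in limma's fit, and the log2 fold changes became 0.63 and 0.57 without UIRI replicate 3. Serping1, the inhibitor of C1r and C1s, read 12718, 11472 and 9802 with vehicle and 8717, 9569 and 10654 with BA, and the groups overlapped. Clu, a chaperone that also holds back the membrane attack complex, read 29725 to 35213 in UIRI and 25574 to 33988 in UIRI + BA and overlapped as well. Vtn, another inhibitor of that complex, had 5 to 21 reads per library, at 11.5 to 18.0 normalized counts in UIRI and 5.38 to 8.35 in UIRI + BA (adjusted p 0.440 in limma's fit).

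Of 7 membrane regulators 3 were higher and 4 lower with BA. Of the lower ones 1 had an unadjusted p below 0.05, where 4.61% of all rows were. The log2 fold change was 0.11 ± 0.14 (SE) for Cd55, -0.02 ± 0.12 (SE) for Cd46, -0.11 ± 0.08 (SE) for Cd59a and 0.08 ± 0.08 (SE) for Cr1l, the rodent regulator Crry. These proteins protect host cells from convertases or from the membrane attack complex. Susd4, a less studied inhibitor, read 355, 243 and 289 with vehicle and 198, 204 and 213 with BA, with the log2 fold change at -0.51 ± 0.14 (SE; adjusted p 0.323, limma), and its groups did not overlap.

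Of 9 receptors and binding proteins of complement fragments 4 were higher and 5 lower. At an unadjusted p below 0.05 there was 1 each way, where 5.67% of all rows were higher and 4.61% lower. Itgam, which forms complement receptor 3 with Itgb2, read 1892, 1854 and 1467 with vehicle and 1343, 1490.5 and 1309.6 with BA, with the log2 fold change at -0.32 ± 0.11 (SE; adjusted p 0.398, limma). For Itgb2 the log2 fold change was -0.15 ± 0.14 (SE), and for the C5a receptor C5ar1 it was -0.18 ± 0.11 (SE). Calr, a chaperone that also binds C1q, read 12386 to 12837 in UIRI and 13946 to 15697 in UIRI + BA (log2 fold change 0.22, adjusted p 0.440 in limma's fit). The groups overlapped for Itgam, Itgb2 and C5ar1 but not for Calr.

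Elsewhere in the cascade, C7 of the terminal pathway read 1514, 1569 and 1734 with vehicle and 2291, 1907 and 1888 with BA, with the log2 fold change at 0.33 ± 0.10 (SE; adjusted p 0.340, limma) and groups that did not overlap. It was 1 of 6 terminal pathway genes, 5 higher and 1 lower. Of the higher ones, C8a (1 to 16 reads per library), C9 (2 to 16) and Hc (6 to 23) had few reads, and the groups overlapped in these and in C8g. C6, which binds beside C7 in the membrane attack complex, stood at a log2 fold change of -0.14 ± 0.12 (SE). Properdin (Cfp), which stabilizes the alternative convertase, read 1865, 1889.6 and 1198 with vehicle and 1350.5, 1604 and 1155 with BA, with UIRI replicate 3 low as for C1q. C1s2, the copy of C1s1, read 25.9 to 32.9 in UIRI and 17.7 to 20.0 in UIRI + BA on 16 to 60 reads per library (log2 fold change -0.62, adjusted p 0.442 in limma's fit).

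**Figure D4:**
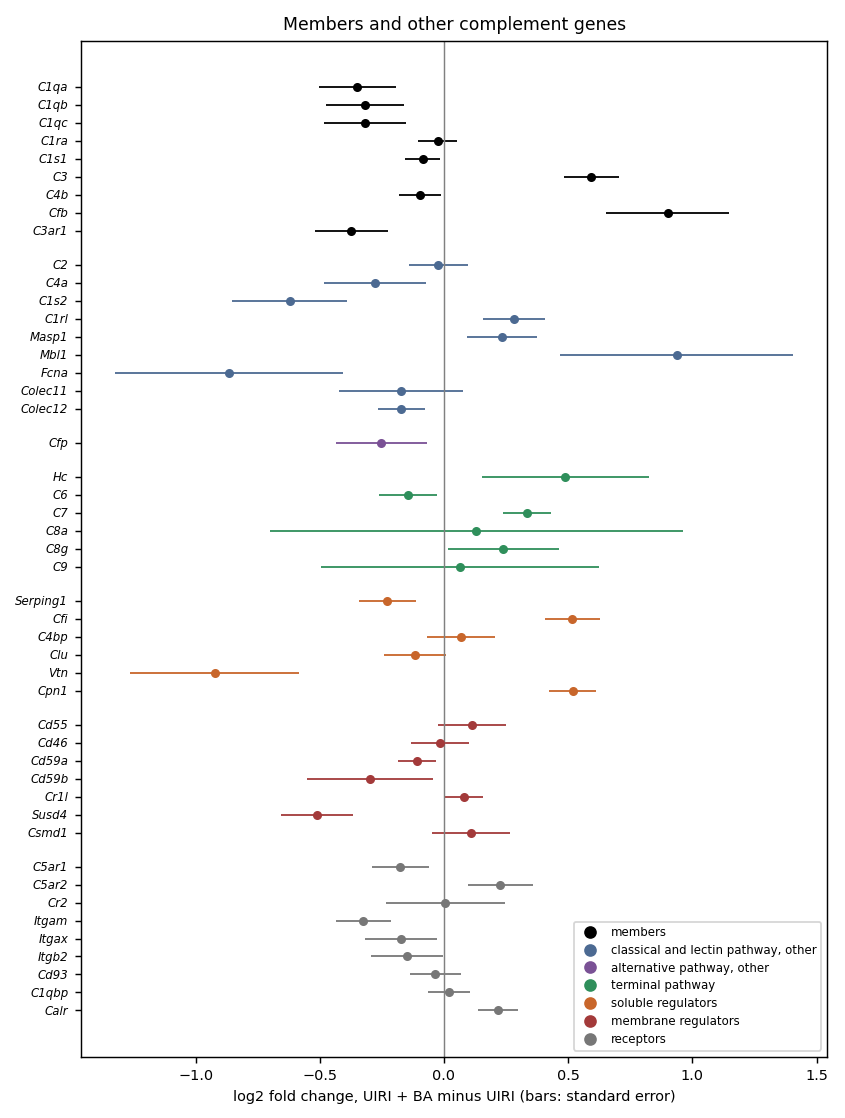
Log2 fold change (UIRI + BA minus UIRI, points) with its standard error (bars) for the 9 complement genes chosen by name (black) and for other complement genes of the lists, by role. C3, Cfb, Cfi, Cpn1 and C7 lie to the right of 0 and the C1q chains, C3ar1, Susd4 and Itgam to the left, and wide bars mark genes with few reads such as C8a and Vtn.

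**Figure D5:**
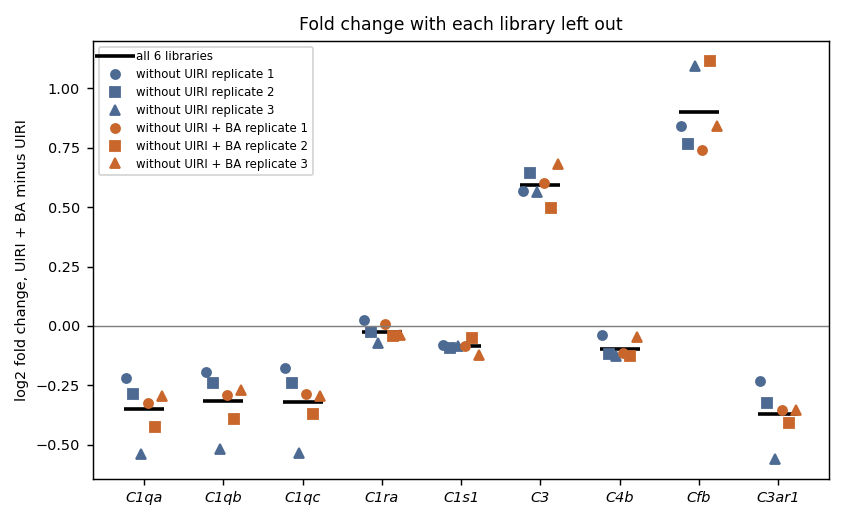
Log2 fold change (UIRI + BA minus UIRI) of each complement gene with all 6 libraries (black line) and with 1 library left out (points). C3 stays between 0.50 and 0.68 and Cfb between 0.74 and 1.12, while the C1q chains and C3ar1 are lowest without UIRI replicate 3 and closest to 0 without UIRI replicate 1.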

How the data were processed

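For libraries labelled as renal cortex, the authors enriched poly(A) RNA, sequenced it as paired reads, aligned the reads with HISAT2, counted them with FeatureCounts and used DESeq2 (methods of the study). The genome build and annotation are not given in the sources used here. The authors deposited 1 table with a signal for each gene in each library, namely reads scaled by a size factor. In each library 100% of values were whole multiples of 1 step (tolerance 0.01), which gave back whole reads. That table also holds the authors' fold changes and p-values, and further tables hold their enrichment results. None of these was used. The values, here called normalized counts, were log2-transformed after adding a pseudocount of 1 and fitted over all 19176 rows (no filter, no covariate) with limma 3.58.1 (R 4.3.3) with an intensity trend, two-sided, with Benjamini-Hochberg adjustment. Because the values are normalized, count tests on the recovered reads (DESeq2 1.42.0 and edgeR 4.0.16) were alternatives only, and the recovered reads also gave depth, reads per gene and levels per length. Groups came from the labelled treatments, 3 libraries each. Positions and exon lengths are those of GENCODE release M21 (GRCm38), joined by symbol (98.0% of symbols matched). The fits were tested on simulated data. The study calls the 3 libraries of a group independent biological replicates.

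The 9 genes, the pathway and marker lists and the tests were chosen with earlier results of these data known. Named were the 9 genes, a set of pathway and marker genes listed by name, other pathway genes with an unadjusted p below 0.05, and the 2 nearest genes by profile. Some genes of these lists enter the counts but are not reported here.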

Additional observations from a re-analysis of the deposited data

How the results depend on the processing

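The counts of other complement genes that passed, the fold changes of the 9 genes and their median were refitted with a pseudocount of 0.1, a minimum value of 1 for all libraries, quantile normalization, upper quartile scaling, a replicate block, DESeq2, edgeR's quasi-likelihood test, and each library left out in turn, and the overlap of groups was counted again under both scalings and without each library. Marker lists and other complement genes without UIRI replicate 3 were added after seeing the data, and ratios, levels per length and nearest genes were not recomputed. The 9 genes' median of -0.10 (log2) was -0.12 with quantile normalization or upper quartile scaling, and C3 and Cfb were higher and C1qa, C1qb, C1qc, C1s1, C4b and C3ar1 lower with BA in every fit, while C1ra was lower except without UIRI replicate 1 or UIRI + BA replicate 1. With DESeq2, 2 other complement genes had an adjusted p below 0.05 and 3 had an unadjusted p below 0.05 and were lower, against 0 and 5 with limma. With 1 library left out, the number at an adjusted p below 0.05 ran from 0 to 4, the number at an unadjusted p below 0.05 from 3 to 7 (higher) and from 2 to 10 (lower), the median from -0.13 to -0.08, and the number of the 9 genes whose groups did not overlap from 2 to 6. The highest of each count came without UIRI replicate 3. In that fit 2629 of all 19176 rows were higher and 2209 lower at an unadjusted p below 0.05 (limma). The number lower was 3 without UIRI replicate 1 or UIRI + BA replicate 3. It was 2 without UIRI replicate 2 or UIRI + BA replicate 2. Over all rows 308 to 834 were lower at that threshold in these fits. Without UIRI + BA replicate 2 the groups were apart for 4 of the 9 genes. Groups come apart more easily when 1 library is left out. The share of all rows apart was not counted there, so 4 or 6 of 9 cannot be set beside 2 of 9. The cause of these shifts was not tested.

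The labels number the libraries of both groups from 1 to 3, but nothing says that a number marks a shared litter, batch or day. Deviations from the group means correlated at -0.24, 0.30 and 0.15 between same-numbered libraries over 17249 genes, and UIRI replicate 1 correlated best with UIRI + BA replicate 2. With the replicate block the 9 genes' median was again -0.10, 0 other complement genes had an adjusted p below 0.05, and over all genes 6 had one, against 0 without it. The 3 libraries in each group limit the precision everywhere, and few reads limit it further for Cfb, Vtn and C1s2.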

Other observations

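Some components that the liver supplies to plasma were near the limit of detection in the cortex, while others, such as C3, were not. C9, the pore-forming subunit of the membrane attack complex, had 2 to 16 reads per library, C8a 1 to 16 and Hc (C5) 6 to 23, and normalized counts of Hc were 6.75 to 12.6 in UIRI and 12.5 to 16.7 in UIRI + BA. Among the recognition molecules of the lectin pathway, Mbl1 had 4 to 28 reads and Fcna 3 to 11, whereas the scavenger collectin Colec12 read 4532 to 5291 normalized counts in UIRI and 4021 to 4810.4 in UIRI + BA. Masp1, a protease of that pathway, read 310.4 to 436 in UIRI and 396 to 486 in UIRI + BA. The groups overlapped in each of the 7 genes C9, C8a, Hc, Mbl1, Fcna, Colec12 and Masp1. C9, C8a, Mbl1, Fcna, Colec12 and Masp1 were chosen for mention after their values were seen.

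Neutrophil and interferon genes were not part of the comparison of complement genes. Of 4 neutrophil markers in the table all were lower with BA, 3 of them at an unadjusted p below 0.05, where 4.61% of all rows were, and 0 after adjustment (limma; 2 without UIRI replicate 3, where 1.79% of all rows were), with summed normalized counts of 1249 to 1739 in UIRI and 1035 to 1164 in UIRI + BA. Of 10 interferon response genes 9 were lower, 2 at an unadjusted p below 0.05 (4.61% of all rows) and 0 at an adjusted one (limma). Without UIRI replicate 3, 5 were lower at an adjusted p below 0.05 (limma), where 1.79% of all rows were. The sums of the 10 genes, 13551 to 18389 in UIRI and 12160 to 15869 in UIRI + BA, overlapped. Of 10 acute phase and NF-kappaB genes 6 were higher and 4 lower, with 1 higher at an unadjusted p below 0.05, where 5.67% of all rows were.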
